A study of Homo sapiens with 6 samples.

Results

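Glycosaminoglycans are long sugar chains that cells attach to core proteins to make proteoglycans. A linker of xylose, galactose and glucuronic acid is first built on the core protein, then extended either into heparan sulfate or into chondroitin and dermatan sulfate, and the chain is trimmed and sulfated as it grows. Heparan sulfate on syndecans and glypicans binds growth factors at the surface of epithelial cells, and used chains are taken apart one sugar and one sulfate at a time in the lysosome.

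The 59 genes described here encode the enzymes of these steps, the suppliers of their precursors, the core proteins and the degrading enzymes. They were taken by symbol from the 56638 gene symbols counted. RNA was sequenced from HCT116, an established human colorectal cancer cell line, as 3 wild-type samples (WT) and 3 samples labelled as a METTL3 knockout made with CRISPR/Cas9 (METTL3-KO), METTL3 being the enzyme that writes N6-methyladenosine on mRNA. All 6 samples were grown in McCoy's 5a medium with serum, and the study's methods describe its knockout line as a single clone made under puromycin selection. The deposited tables, however, carry the short names NC for the WT and SiM3 for the METTL3-KO samples, which the labels do not explain, and the study also used siRNAs against METTL3 in other assays. Whether the METTL3-KO samples are the knockout clone or a knockdown could not be settled from the sources used here, and METTL3-KO below names the label. The labels do not say whether the samples of a group came from separate cultures, so the p-values measure only the spread between these samples, which may be technical.

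Between 20936091 and 30142144 read pairs per sample were counted on genes, and 22452 genes were tested. The METTL3 transcript, the check of the labels, stood at 30.6, 30.2 and 29.2 counts per 1000000 (CPM) in WT and 7.26, 7.69 and 6.89 CPM in METTL3-KO (log2 fold change -2.04, SE 0.091, adjusted p = 1.59e-07). Adjusted p-values throughout come from the quasi-likelihood test of edgeR, corrected by Benjamini-Hochberg over all tested genes, and a gene was called lower or higher where its value was under 0.05. WT replicate 3 and METTL3-KO replicate 3 stood apart from the other 2 samples of their groups: a chi-square of the counts per gene of 23.4 or more separated WT 3 from WT 1 and WT 2, against 2.61 between those 2, and 8.46 or more separated METTL3-KO 3 from its group, against 2.37. The deviations of these 2 samples ran with transcript length in opposite directions (Spearman's rho across genes 0.66 and -0.60). Of the epithelial markers, 9 of 9 exceeded 1 CPM in all samples, with a summed level of 5886 to 7288 CPM in WT and 8384 to 9351 CPM in METTL3-KO. Fibroblast markers summed to at most 9.86 CPM, with COL1A2, COL3A1 and PDGFRA at 0, leukocyte markers to at most 10.1 CPM, nearly all of it CD14, and endothelial markers to at most 0.18 CPM. The part of these differences in the results was not tested, and in bulk RNA fewer cells of a type and less RNA per cell cannot be told apart.

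Of the 59 genes, 55 passed the filter on low counts, and 16 were lower and 7 higher in METTL3-KO. That is 41.8% of those tested, beside 26.5% of all genes tested (13.2% lower and 13.3% higher). All genes tested include many with few counts, which can hardly be called. With filterByExpr, a stricter filter on low counts, the shares were 47.1% of 51 genes and 37.4% of all genes. The median log2 fold change was -0.11 over the 55 genes and -0.02 over all genes. The samples of both groups did not overlap for 31 of the 55, with METTL3-KO below WT in 19 and above it in 12, beside 40.9% of all genes tested (20.7% below and 20.2% above). The study itself named 9 of the genes as candidates partly because they were lower in these same samples, so their direction is not independent evidence. They are GALNS, IDUA and SGSH (degradation), GLCE, HS6ST1 and HS3ST1 (heparan), CHST12 (chondroitin), SLC26A1 (precursor supply) and AGRN (core protein). The counts by role below include them. Of these 9, 8 were lower here, and of the other 46 tested, 8 were lower and 7 higher. With WT 3 and METTL3-KO 3 both left out, 27 were lower and 9 higher, with 44.1% of all genes called, and without WT 3 alone 20 were lower and 9 higher, with 34.7% of all genes called.

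**Figure D1:**
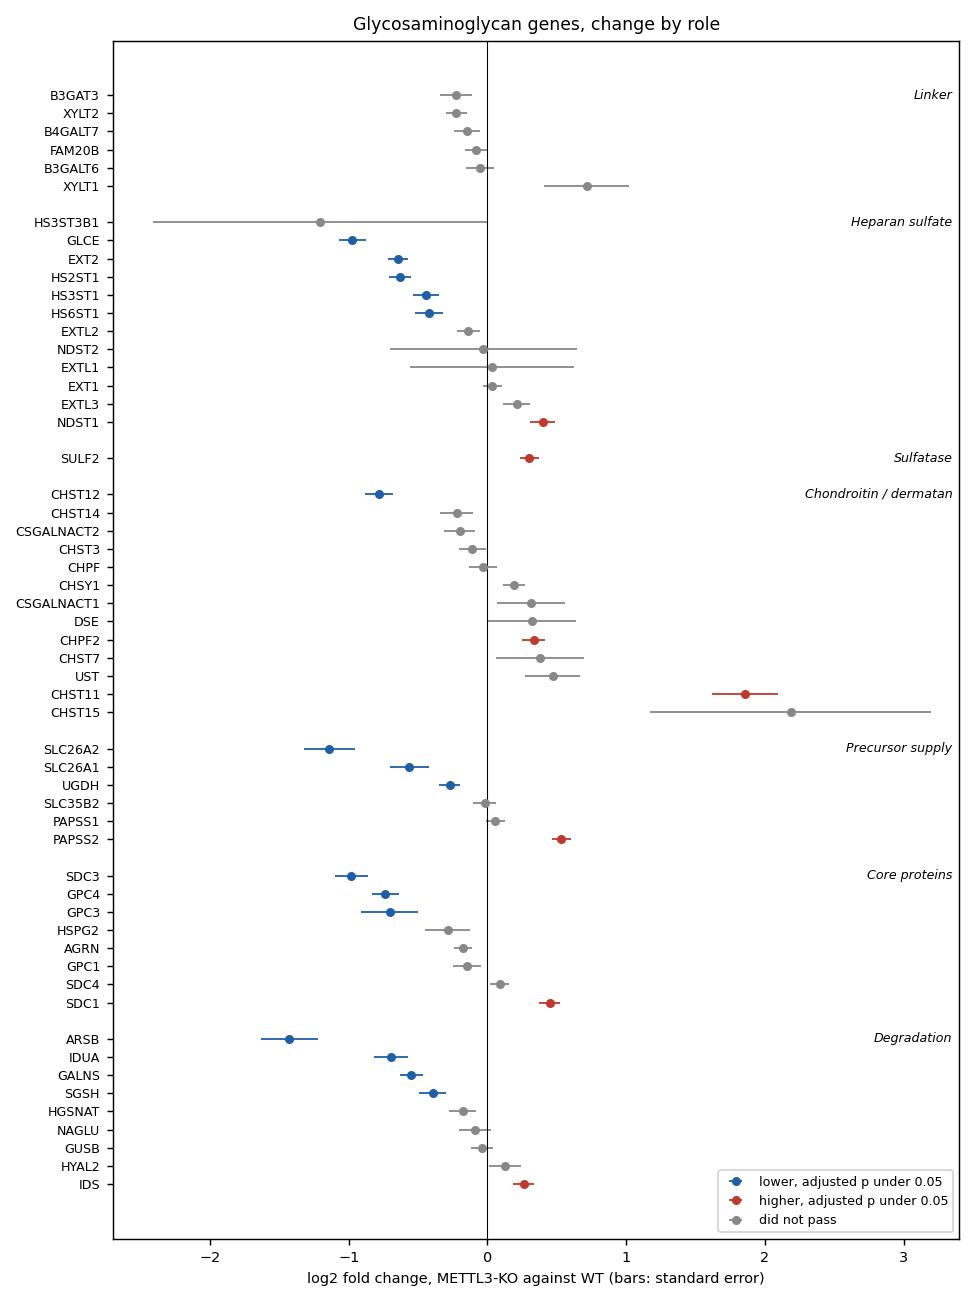
Log2 fold change of METTL3-KO against WT (x axis) for the 55 tested glycosaminoglycan genes, grouped by role, with bars of 1 standard error. Lower genes (blue) lie in every group but the linker enzymes and the extracellular sulfatase, and CHST11 lies farthest to the right among the genes called higher.

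Where these genes sit on a scale of abundance was compared per kilobase of the longest annotated transcript. The core protein AGRN (agrin) led in WT at 147 CPM per kilobase, ahead of the sulfate donor transporter SLC35B2 at 64.6 and the core protein SDC1 (syndecan-1) at 56.0. In METTL3-KO the first was AGRN again at 130 CPM per kilobase, and SDC1 at 76.4 stood above SLC35B2 at 63.7. GLCE moved from rank 20 to rank 29 of the 55, and CHST11 from rank 49 to rank 43. CHST12 ranks low on this scale, at 0.96 CPM per kilobase in WT, where its level is divided by an annotated transcript of 15985 bases. Chondroitin enzymes filled much of the low end, with CHST7, DSE and CHST15 at 0.32, 0.082 and 0.0061 CPM per kilobase in WT. SDC2, HS6ST2 and CHSY3 had no count in any sample, which allows a level of up to 0.099 to 0.14 CPM depending on the sample (3 counts, counting error only). SULF1 had 1, 0 and 0 counts in WT and 1, 1 and 0 in METTL3-KO and was not tested.

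**Figure D2:**
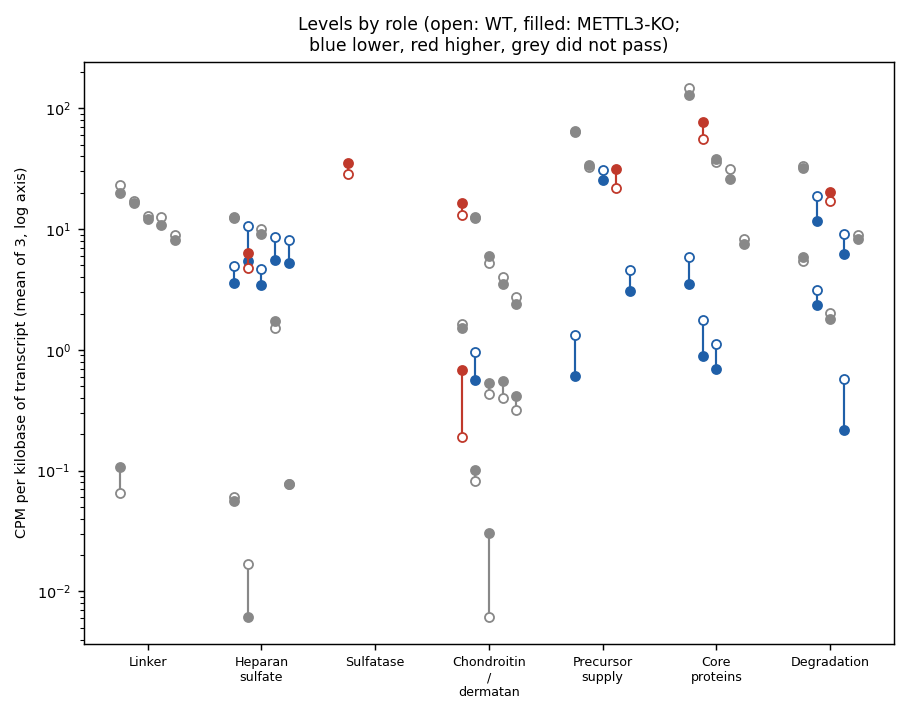
Mean level of each tested gene in WT (open) and METTL3-KO (filled) in CPM per kilobase of transcript on a log axis, by role, 3 samples per group. Genes called lower are blue, genes called higher red and the rest grey; the core proteins reach the highest level and the chondroitin group spans the widest range.

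The 6 linker genes encode the enzymes that start every chain. None of them was called (0 lower and 0 higher of 6, beside 26.5% of all genes tested), and their log2 fold changes ran from -0.23 to 0.71. B3GAT3, which adds the glucuronic acid that completes the linker, had 51.6, 50.5 and 40.2 CPM in WT and 36.8, 37.9 and 47.3 CPM in METTL3-KO. B3GALT6, a galactosyltransferase, had 50.6, 51.9 and 40.2 CPM against 44.4, 43.8 and 49.5 CPM. FAM20B, the xylose kinase, had 74.9, 72.0 and 85.2 CPM against 74.3, 72.8 and 71.9 CPM. In all 3 the groups overlapped. For B3GAT3 and B3GALT6 the third sample of each group lay towards the other group. With both left out, an alternative chosen after seeing the data, 4 of the 6 linker genes were called lower. B3GAT3 then had an adjusted p of 5.83e-09, in a fit that called 44.1% of all genes. The 2 samples left out deviated with transcript length in opposite directions, and the part of this in the linker calls was not tested. With all 6 samples and a correction for transcript length and GC content, B3GAT3 (adjusted p = 0.0265) and XYLT2 (0.0125) were lower. That fit called 33.7% of all genes. B3GAT3 also passed without WT 3 (adjusted p = 0.00746) or METTL3-KO 3 (0.0490). XYLT2, the main xylosyltransferase here, came close in the main fit with all samples (log2 fold change -0.22, adjusted p = 0.0518). XYLT2 passed in 5 of 14 alternatives and B3GAT3 in 4.

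Among the heparan sulfate enzymes, 12 of 13 were tested, and 5 were lower and 1 higher (50%, beside 26.5% of all genes). The lower GLCE, HS6ST1 and HS3ST1 were among the study's candidates. The polymerase that extends heparan is a complex of EXT1 and EXT2. EXT2 had 84.4, 81.4 and 80.2 CPM in WT and 54.6, 51.6 and 51.4 CPM in METTL3-KO (log2 fold change -0.64, SE 0.071, adjusted p = 5.32e-05). It fell by 35.9%, with no overlap between the groups. EXT1 had 103, 100.1 and 103 CPM in WT and 104, 102 and 108 CPM in METTL3-KO (0.03, SE 0.068, adjusted p = 0.745), with the groups overlapping. EXTL2, a related transferase, had 29.9, 31.6 and 32.4 CPM against 27.7, 30.3 and 27.3 CPM and did not pass.

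The enzymes that modify the heparan chain after its extension differed in direction. NDST1 removes acetyl groups from glucosamine and puts sulfate in their place, the step that opens the chain to further change. Its level was 36.8, 35.6 and 43.1 CPM in WT and 52.6, 52.5 and 47.2 CPM in METTL3-KO (log2 fold change 0.40, SE 0.091, adjusted p = 0.00663), with all METTL3-KO samples above WT. GLCE, the epimerase that turns glucuronic acid into iduronic acid, had 47.9, 54.1 and 59.9 CPM in WT and 28.9, 28.0 and 25.4 CPM in METTL3-KO (-0.97, SE 0.097, adjusted p = 2.59e-05), and fell by 49.0%. HS2ST1, which sulfates the uronic acid, had 53.9, 57.8 and 61.6 CPM against 36.5, 38.8 and 36.9 CPM (-0.63, SE 0.079, adjusted p = 0.000134). For both genes every METTL3-KO sample was below every WT sample. The remaining sulfotransferases with more than a few counts were also lower: HS6ST1 had 19.1, 20.7 and 19.1 CPM in WT and 15.0, 13.0 and 16.0 CPM in METTL3-KO (-0.42, SE 0.10, adjusted p = 0.00838). HS3ST1, which makes the antithrombin-binding form of the chain, had 36.9, 33.7 and 35.1 CPM against 28.9, 25.5 and 23.1 CPM (-0.45, SE 0.094, adjusted p = 0.00415). Neither gene had overlapping groups. EXTL3 missed the threshold at 0.21 (SE 0.099, adjusted p = 0.146). EXTL1, NDST2 and HS3ST3B1 had at most 13 counts in a sample, and NDST2 shares 82.9% of its exon bases with a read-through gene.

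SULF2 encodes a sulfatase that works outside the cell and removes sulfate from finished heparan chains. Its level was 142, 144 and 138 CPM in WT and 179, 169 and 174 CPM in METTL3-KO (log2 fold change 0.30, SE 0.067, adjusted p = 0.00542), so all METTL3-KO samples were above WT. At 28.7 CPM per kilobase in WT it stood above each of the heparan-building enzymes, the highest of which was EXT1 at 12.4 CPM per kilobase. This order rests on the longest annotated transcript of each gene and could differ with other transcripts. EXT2, at 8.17 CPM per kilobase, is divided by 10037 bases.

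Of 14 chondroitin and dermatan sulfate enzymes, 13 were tested, and 1 was lower and 2 higher (23.1%, beside 26.5% of all genes). The lower gene, CHST12, was among the study's candidates. The pair that sulfates chondroitin on the same position of galactosamine moved in opposite directions. CHST11 had 23, 27 and 26 counts in WT and 111, 109 and 72 counts in METTL3-KO, which is 0.84, 1.19 and 1.22 CPM against 3.68, 4.96 and 3.06 CPM (log2 fold change 1.85, SE 0.24, adjusted p = 0.000144). CHST12 had 16.0, 14.8 and 15.3 CPM in WT and 8.49, 8.46 and 9.91 CPM in METTL3-KO (-0.78, SE 0.10, adjusted p = 0.000174). CHST11 was 3.62-fold of its WT level and CHST12 fell by 41.8%, with no overlap of groups in either.

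CHPF2, a partner of the chondroitin polymerase, had 57.2, 63.2 and 53.1 CPM in WT and 75.3, 70.1 and 73.1 CPM in METTL3-KO (log2 fold change 0.33, SE 0.082, adjusted p = 0.0101). All METTL3-KO samples lay above WT, but the adjusted p was 0.0520 without METTL3-KO 1, and 22.1% of its exon bases are shared with other genes, SMARCD3 on the opposite strand among them. CHPF, the related partner, had 43.7, 42.8 and 36.4 CPM against 38.1, 37.1 and 45.3 CPM, and its groups overlapped. CHSY1, the polymerase itself, had 23.4, 24.6 and 25.4 CPM against 28.6, 27.5 and 27.6 CPM (0.19, SE 0.079, adjusted p = 0.101): the groups did not overlap, yet it did not pass, except without WT 3 (adjusted p = 0.0389) or without replicate 3 of both groups (0.00914). The other 8 tested genes of this group that did not pass had log2 fold changes from -0.22 to 2.18, the last being CHST15 with 0, 2 and 0 counts in WT and 4, 4 and 3 in METTL3-KO.

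Sulfate enters the cell through carriers, is activated to the donor PAPS and is carried into the Golgi, while UGDH makes the precursor of glucuronic acid. Of the 6 precursor genes 3 were lower and 1 higher (66.7%, beside 26.5% of all genes). SLC26A2, the sulfate carrier whose loss causes skeletal dysplasias, had 10.0, 8.23 and 14.0 CPM in WT and 5.34, 5.00 and 4.21 CPM in METTL3-KO (log2 fold change -1.14, SE 0.18, adjusted p = 0.000708). Its highest value was in WT 3, and even the lowest WT value was above all METTL3-KO values. SLC26A1, a second sulfate carrier, had 15.4, 14.5 and 20.8 CPM against 12.9, 10.7 and 10.4 CPM (-0.56, SE 0.14, adjusted p = 0.0117), and missed the threshold without METTL3-KO 2 (adjusted p = 0.0587). UGDH had 95.4, 88.3 and 99.0 CPM against 82.7, 74.2 and 77.0 CPM (-0.27, SE 0.077, adjusted p = 0.0205). The UGDH call was lost without WT 1 (adjusted p = 0.0647), without METTL3-KO 2 (0.112) or without METTL3-KO 3 (0.0601).

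PAPS itself is made by 2 related synthases. PAPSS2 had 85.3, 87.5 and 84.7 CPM in WT and 127, 125 and 120 CPM in METTL3-KO (log2 fold change 0.53, SE 0.068, adjusted p = 0.000148). PAPSS1 had 81.2, 84.7 and 79.3 CPM against 85.5, 84.1 and 85.4 CPM (0.06, SE 0.069, adjusted p = 0.587). Per kilobase the 2 synthases stood at 21.7 and 32.5 CPM in WT and at 31.4 and 33.8 CPM in METTL3-KO, so PAPSS2 came nearer to PAPSS1. SLC35B2, which carries PAPS into the Golgi, had 135, 138 and 119 CPM against 127, 123 and 137 CPM, with overlapping groups.

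**Figure D3:**
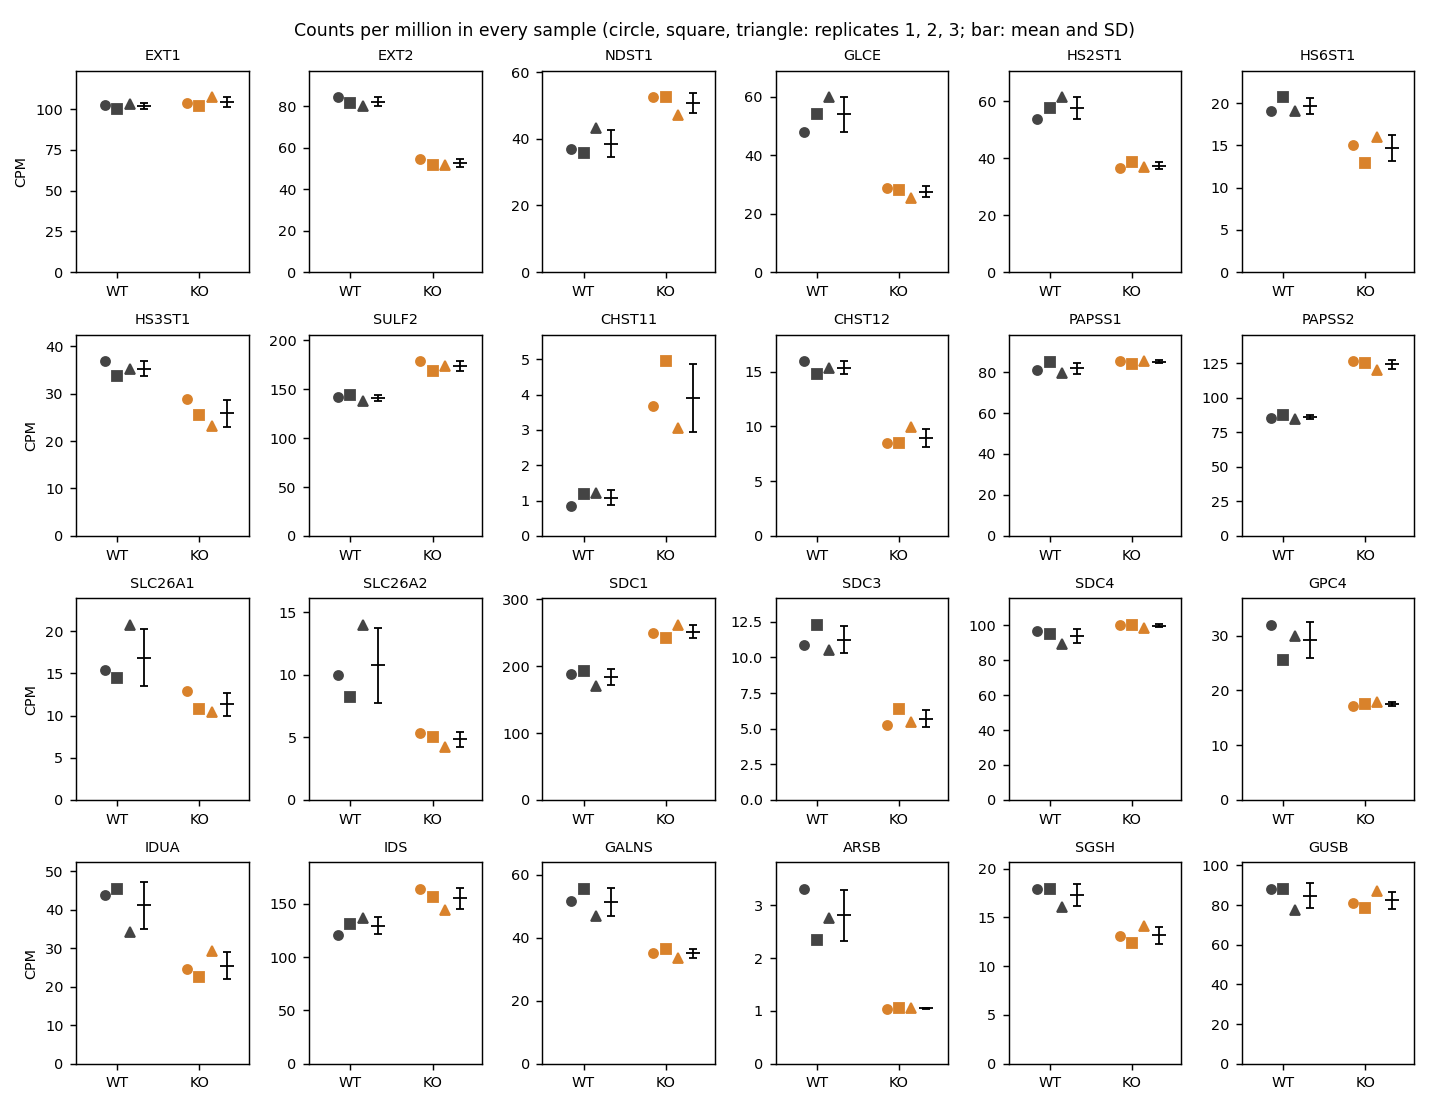
CPM (y axis, from 0) of 24 glycosaminoglycan genes in each WT (dark) and METTL3-KO (orange) sample, with the mean and SD of 3 beside the points. EXT1, PAPSS1 and GUSB overlap between the groups, whereas EXT2, GLCE and GPC4 leave a gap and CHST11 and PAPSS2 rise.

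Of the 9 core proteins 8 were tested, and 3 were lower and 1 higher (50%, beside 26.5% of all genes). SDC1, the main syndecan of epithelia, had 189, 194 and 171 CPM in WT and 250, 243 and 262 CPM in METTL3-KO (log2 fold change 0.45, SE 0.074, adjusted p = 0.000838). SDC3, a syndecan best known from nervous tissue, had 10.9, 12.3 and 10.5 CPM against 5.27, 6.37 and 5.48 CPM (-0.98, SE 0.12, adjusted p = 0.000104). The 2 syndecans moved in opposite directions without overlap, and SDC4 had 96.9, 94.8 and 89.3 CPM against 100.04, 100.3 and 98.7 CPM and did not pass (0.09, SE 0.069, adjusted p = 0.382).

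Glypicans hold heparan sulfate at the membrane through a lipid anchor. GPC4 had 32.0, 25.5 and 30.0 CPM in WT and 17.1, 17.6 and 17.9 CPM in METTL3-KO (log2 fold change -0.73, SE 0.097, adjusted p = 0.000189), and fell by 39.9%. GPC3 had 72, 67 and 48 counts in WT and 48, 43 and 30 in METTL3-KO, or 2.62, 2.96 and 2.25 CPM against 1.59, 1.96 and 1.28 CPM (-0.71, SE 0.21, adjusted p = 0.0242). The GPC3 call was lost without WT 1 (adjusted p = 0.0708), WT 2 (0.102), METTL3-KO 1 (0.0808) or METTL3-KO 3 (0.0851). GPC1 did not pass at -0.15 (SE 0.10, adjusted p = 0.322).

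Agrin and perlecan are secreted into the basement membrane. AGRN had 1094, 1059 and 1136 CPM in WT and 976, 981 and 955 CPM in METTL3-KO, which missed the threshold (log2 fold change -0.18, SE 0.063, adjusted p = 0.0614). Its groups did not overlap, and the adjusted p was 0.0461 without WT 3 and 0.00526 with a correction for transcript length and GC content. HSPG2 (perlecan), whose annotated transcript is 14341 bases long, had 390, 370 and 598 CPM against 407, 390 and 315 CPM (-0.29, SE 0.16, adjusted p = 0.215), with WT 3 far above the other WT samples. HSPG2 was lower in 2 of 14 alternatives. These were the length and GC correction (adjusted p = 0.0190) and keeping every gene with at least 1 count (0.00303). Without WT 3 its adjusted p was 0.819.

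Of the 9 degrading enzymes 4 were lower and 1 higher (55.6%, beside 26.5% of all genes). The lower IDUA, GALNS and SGSH were among the study's candidates. Most of the degrading enzymes act in the lysosome, and the loss of several of them causes mucopolysaccharidoses. IDUA, which releases iduronic acid, had 43.8, 45.5 and 34.2 CPM in WT and 24.7, 22.4 and 29.3 CPM in METTL3-KO (log2 fold change -0.69, SE 0.12, adjusted p = 0.00134). GALNS, which takes sulfate from galactosamine and galactose, had 51.6, 55.6 and 46.9 CPM against 35.1, 36.5 and 33.7 CPM (-0.55, SE 0.084, adjusted p = 0.000517). Neither gene had overlapping groups, METTL3-KO being the lower. ARSB, another sulfatase of galactosamine, had 91, 53 and 59 counts in WT and 31, 23 and 25 in METTL3-KO, or 3.31, 2.34 and 2.77 CPM against 1.03, 1.05 and 1.06 CPM (-1.43, SE 0.21, adjusted p = 0.000324). It fell by 62.9%, from a low level. SGSH, the sulfamidase of heparan, had 17.96, 17.9 and 16.0 CPM against 13.1, 12.4 and 14.1 CPM (-0.39, SE 0.096, adjusted p = 0.00943), and missed the threshold without METTL3-KO 2 (adjusted p = 0.0561).

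IDS, which removes sulfate from iduronic acid one step before IDUA, went the other way, with 121, 131 and 137 CPM in WT and 164, 156 and 145 CPM in METTL3-KO (log2 fold change 0.26, SE 0.078, adjusted p = 0.0274). This call was lost without WT 1 (adjusted p = 0.123), WT 2 (0.0582), METTL3-KO 1 (0.131) or METTL3-KO 2 (0.0936), and 75.9% of the IDS exon bases are shared with other annotated genes. GUSB, the glucuronidase, had 88.3, 88.3 and 77.4 CPM against 81.1, 78.8 and 87.1 CPM and its groups overlapped. NAGLU, HGSNAT and HYAL2 did not pass either, with log2 fold changes from -0.18 to 0.13. IDUA and SLC26A1 lie on chromosome 4 on opposite strands (GRCh37, 980785 to 998352 and 972861 to 987228) and share 13.2% and 12.4% of their exon bases. The strand setting of the counting is not given in the sources used here, so reads in the shared exons cannot be assigned with certainty.

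For 6 pairs of related genes, picked after their values were seen, the ratio of counts within each sample was compared, since library size cancels in it; the ratios are not scaled by transcript length, so only their change between groups is read. The log2 ratio of EXT2 to EXT1 was -0.28, -0.30 and -0.36 in WT and -0.93, -0.98 and -1.07 in METTL3-KO. That of CHST11 to CHST12 was -4.25, -3.63 and -3.65 in WT and -1.21, -0.77 and -1.69 in METTL3-KO. PAPSS2 to PAPSS1 went from a mean of 0.07 to 0.54, SDC3 to SDC1 from -4.04 to -5.47, GPC4 to GPC1 from -0.09 to -0.67, and CHPF2 to CHPF from 0.50 to 0.86. In all 6 pairs the samples of the groups did not overlap. These are descriptions with no test.

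**Figure D4:**
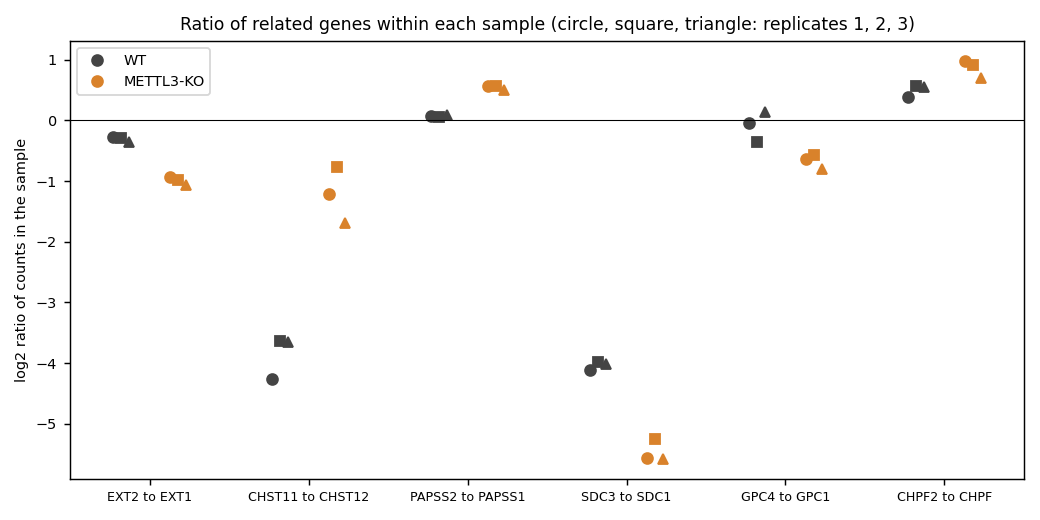
Log2 ratio of counts of 6 pairs of related glycosaminoglycan genes in each WT (dark) and METTL3-KO (orange) sample. The points of the groups separate for every pair, most for CHST11 to CHST12, where the mean moves from -3.85 to -1.22.

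The promoters of 48 of the 59 genes were found in the RefSeq table (GRCh38.p14), and the 250 bases before the start were searched on both strands. The GC box GGGCGG was present for 44 of the 48 (91.7%), beside 46.2% of 27305 genes. Those 27305 genes, the background for both motifs searched, are every gene with a promoter entry and were not limited to genes tested here. The shares are thus not of like sets. The E-box CACGTG, a palindrome bound by MYC and by the TFEB family of lysosomal regulators, was present for 8 (16.7%), beside 7.73% of all genes, and the 2 motifs can share only an end base. It was found for 3 of the 14 lower genes with a promoter (21.4%), 1 of the 6 higher (16.7%) and 4 of the 26 tested genes that did not pass (15.4%). The higher gene was SULF2, and those that did not pass were B3GALT6, EXTL2, SLC35B2 and CHSY1. The 30 bases around the E-box, in capitals, are shown for the 3 lower genes only, with the sequence in the direction of the gene.
ARSB (chr5:78986101-78986130, minus strand): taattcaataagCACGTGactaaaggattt
GALNS (chr16:88857104-88857133, minus strand): caggcaccgcgtCACGTGacccgccgctgg
SLC26A2 (chr5:149960722-149960751, plus strand): gcccggcagtacCACGTGacggcctcggcc
The motif begins 160, 174 and 24 bases before the start of ARSB, GALNS and SLC26A2. A match describes these letters only and is no measure of binding.

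Since the short names leave a knockdown possible, the 3'UTRs were searched for words that pair with the seed (bases 2 to 8) of the antisense strands of the study's 2 METTL3 siRNAs, shown here with the seed in capitals.
METTL3-1: aTACTGACgtccaggtagc
METTL3-2: tAGTGAACatacttgcagg
The words GTCAGTA or GTTCACT stood in the 3'UTR of 11 of the 55 tested glycosaminoglycan genes (20%), beside 17.9% of 14420 tested genes with an annotated 3'UTR. Of these 11, 5 were lower (EXT2, GLCE, HS2ST1, CHST12 and ARSB) and 3 higher (SULF2, CHST11 and IDS), and the median log2 fold change was 0.09 with a word and -0.12 without. Over the 14420 tested genes with an annotated 3'UTR, 731 of the 2574 with a word were lower and 343 higher. Their median was -0.11 with a word and 0.03 without. Calls among genes without a word were not counted. The 13.2% lower over all 22452 genes includes genes without an annotated 3'UTR and is not a like background. Genes with a word had longer 3'UTRs, with a median of 3143 bases against 1195 over all genes and 4211 against 1525 among the glycosaminoglycan genes. GLCE (GRCh37 chr15:69452923-69564556, plus strand) had 3 words in a 3'UTR of 2963 bases, at positions 2065, 2143 and 2444, with the word in capitals.
GLCE 2065: atagcagcattGTCAGTAcagaccagtgg
GLCE 2143: cagatcccagaGTCAGTAaatctgcctgt
GLCE 2444: acttatcttgaGTTCACTttgatgttaaa
HS2ST1 also had 3 words and CHST12 had 2. A match describes letters only, and the part of seed words or of 3'UTR length in the changes was not tested.

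A second list of 55 genes of the same pathway was examined in the same fit, and 41 were tested. Of these 7 were lower and 9 higher (39%), beside 26.5% of all genes tested. With filterByExpr the shares were 44.4% and 37.4%. Among the precursor genes of this list 0 of 10 were lower and 4 were higher, namely UGP2, SLC35B3, PGM3 and UAP1. Over all genes tested 13.2% were lower and 13.3% higher. HYAL1, a hyaluronidase, had 1.67, 1.55 and 1.78 CPM in WT and 7.46, 7.10 and 9.52 CPM in METTL3-KO (log2 fold change 2.26, SE 0.16, adjusted p = 3.19e-06). UAP1, which makes UDP-N-acetylglucosamine, had 81.5, 91.8 and 77.0 CPM against 135, 134 and 148 CPM (0.74, SE 0.084, adjusted p = 6.47e-05). Both rose without overlap. LUM (lumican), a keratan sulfate core protein that was also on the fibroblast list, had 0.55, 0.40 and 0.23 CPM against 2.55, 2.18 and 1.96 CPM (2.46, SE 0.29, adjusted p = 8.12e-05). The hyaluronan receptor HMMR, also a gene of the mitotic spindle, had 42.2, 38.8 and 41.5 CPM against 25.8, 27.4 and 25.5 CPM (-0.64, SE 0.079, adjusted p = 0.000117). APLP2, which can carry a chondroitin chain, had 515, 525 and 533 CPM against 380, 373 and 376 CPM (-0.48, SE 0.063, adjusted p = 0.000178). HMMR and APLP2 fell without overlap.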

How the data were processed

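Total RNA of 6 HCT116 samples (3 WT, 3 METTL3-KO) was made into libraries with a TruSeq RNA kit and sequenced as paired ends. The authors mapped the reads to hg19 with TopHat2 2.0.11 and counted them per gene with HTSeq in its union mode; the deposited values are these raw counts, 1 table per sample, with no normalization. Reads in no gene, ambiguous or not unique are listed apart and were left out (69.3% to 71.8% of counted pairs lay on genes). Strand setting is not given in the sources used here. The deposited tables name the samples NC 1, 3 and 4 (WT 1, 2 and 3 in the labels) and SiM3 1, 2 and 3 (METTL3-KO), names that the labels do not explain; groups and replicate numbers were taken from the labels. The siRNA sequences are from the study's table of oligos and the 3'UTRs from the GRCh37 annotation.

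Genes with fewer than 5 counts in total in both groups were removed (34186 of 56638 symbols). The remaining 22452 were tested two-sided with edgeR 4.0.16 (R 4.3.3; TMM, glmQLFit, glmQLFTest, no covariate) and adjusted by Benjamini-Hochberg over all of them. The SE is the log2 fold change divided by the root of the F statistic. CPM use TMM-scaled library sizes and levels between genes are CPM per kilobase of the longest transcript in the GRCh37 annotation, to which 35737 symbols matched. The code was tested on simulated data. Limits of detection cover counting error only, whereas the SE includes the spread between samples estimated in the fit. Of the 59 genes, 10 share at least 10% of their exon bases with another gene.

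The genes and lists were chosen with earlier results of these data known. Values in every sample are given for genes with an adjusted p under 0.05 and an absolute log2 fold change of at least 0.3, or among the 3 most expressed per kilobase of their role in WT, and for the 5 smallest p among called genes of the second list. HSPG2, CHST15, XYLT2, EXTL3 and GPC1 were added after their values were seen. Alternatives were RLE scaling, DESeq2 1.42.0, filterByExpr, keeping every gene with at least 1 count, a replicate block, a correction for transcript length and GC content, and leaving out each sample.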

Additional observations from a re-analysis of the deposited data

How the results depend on the processing

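Of the 23 called genes, 14 kept their call under all alternatives, 17 in every fit that left out 1 sample, 23 with the length and GC correction and 23 with WT 3 and METTL3-KO 3 both left out, an alternative chosen after seeing the data. Leaving those 2 samples out gave 4823 lower and 4555 higher genes in all, 27 lower genes among the 59, 15 higher in the second list, and by role 4 lower linker, 2 higher heparan, 3 lower chondroitin and 5 lower core genes. The length and GC correction gave 2 lower linker and 5 lower core genes, and filterByExpr gave 1 lower linker gene, with 33.7% and 37.4% of all genes called in these 2 fits. Leaving out 1 sample gave 9 to 14 higher genes in the second list, 0 to 2 lower linker genes, 1 to 2 higher heparan, 1 to 3 higher chondroitin, 1 to 3 lower precursor, 2 to 5 lower core and 0 to 1 higher degrading genes, while the share of all genes called ran from 19.2% to 34.7%. It turned the sign of some genes that were not called. Among them, B3GALT6 ranged from -0.156 to 0.0229, CHPF from -0.122 to 0.0260 and SLC35B2 from -0.0822 to 0.0321 on the log2 scale. The cause was not tested.

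The labels number the replicates alike in both groups, but the samples of one number did not deviate together (r across genes -0.59, -0.39 and -0.78 for numbers 1, 2 and 3), so the numbers were not taken to pair samples. The deposited tables number the WT samples 1, 3 and 4, so the numbers shared with METTL3-KO are those of the labels only. With the replicate block, 1719 genes were lower and 1810 higher in all (15.7%). The block left 13 lower and 3 higher among the 59, with 0 higher heparan, 0 higher sulfatase, 1 higher chondroitin and 0 higher degrading genes. The calls it ended were NDST1 (adjusted p = 0.0508), HS6ST1 (0.0520), SULF2 (0.0672), CHPF2 (0.0667), UGDH (0.0984), IDS (0.144) and SGSH (0.0618). With the correction and the block together 22 calls remained, without SLC26A1 (adjusted p = 0.0634), and 1 linker gene was lower. Depth limits the statements on the 8 genes under 1 CPM in all samples.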
